A study of Rattus norvegicus with 12 samples.

Results

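Heart muscle cells that had received the γ- form of the transcription factor MEF2C were set against cells that had received a γ+ form named 23/24 in the labels. The comparison rests on 3 arrays titled mef2Cγ- (the γ- group) and 3 arrays titled mef2Cγ+23/24 (the 23/24 group), 6 of the 12 arrays of the series. It covers the probe sets that carry a single gene symbol. The sources used here do not define the 23/24 change, so the group is called by that name alone. All cultures held ventricular cardiomyocytes of newborn Wistar rats, kept in serum-containing medium for 44 h and then serum-free for 24 h. Each array received RNA labelled from a 2 µg total RNA input. Both groups were transduced with adenovirus. The other 6 arrays are an untreated control group of 3 and a group of 3 given mef2Cγ+. The virus dose is not given in the sources used here, and no group received an empty virus, so γ- against 23/24 compares cells that were both infected, whereas either group against control also differs by the infection. Each group's arrays are titled as biological replicates 1 to 3, with no separate cell isolations named. The p-values thus measure the spread between arrays within the groups, pooled over all 12 arrays, the mef2Cγ+ arrays included. Cultures of this kind also hold other cell types, and fewer cells of a type and less RNA per cell cannot be told apart in such samples.

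MEF2C belongs to the MADS-box family of transcription factors, which bind an AT-rich site in the promoters and enhancers of many muscle genes. Alternative splicing includes or skips a short γ segment of the protein, and this segment is known as a repressor of MEF2 transcriptional activity. MEF2 proteins are also held in check by class IIa histone deacetylases and activated by calcium and stress kinase signals, and in the heart they are linked to fetal gene expression, contractile genes and energy metabolism. No probe set with a single symbol carries Mef2c, so the level of the introduced gene itself was not analysed here.

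Of 10025 genes tested, 812 (8.10%) were called different between the γ- and the 23/24 group by limma at a Benjamini-Hochberg adjusted p under 0.05. In the γ- group 417 (4.16%) were higher and 395 (3.94%) lower. The skeletal myosin gene Myh1 led the rises, with further rises in the skeletal and embryonic myosins Myh2 and Myh3, in myoglobin and in the metabolic coactivator Ppargc1a. Of 53 tested interferon response genes 5 rose, among them Oas1b and Herc6, and 2 fell, Lgals3bp and Oasl, beside the shares of all genes just given. The chemokines Cxcl1 and Cxcl6 and the acute-phase gene Lcn2 were lower. Most differences were small: on the log2 scale, where 1 unit is a 2-fold difference, the median size was 0.31 among the rises and 0.37 among the falls, and 1 gene in each direction reached 1. The 3 arrays of one group did not overlap the 3 of the other for 3634 genes (36.2%), 2003 of them higher (20.0%) and 1631 lower (16.3%) in the γ- group. Of the 812 called genes, 416 of the rises and 394 of the falls were without overlap. The counts leaned on each array: 263 genes were called without γ- replicate 1, 463 without γ- replicate 2, 317 without γ- replicate 3, 309 without 23/24 replicate 1, 359 without 23/24 replicate 2 and 529 without 23/24 replicate 3.

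The same fit called 696 genes (6.94%) between the γ- and the control group, 307 higher (3.06%) and 389 lower (3.88%). Between the 23/24 and the control group limma called 0 genes, with 899 at an unadjusted p under 0.05 and a lowest adjusted p of 0.209. The γ- comparisons share the γ- arrays. Identical values were counted between arrays as a check on their processing. Pairs of arrays shared identical values, in 27 to 111 probe sets, only when both were γ-, both were γ+, or both came from the pooled set of control and 23/24 arrays, which makes 21 pairs. The remaining 45 pairs of arrays shared 0. The γ- arrays thus carry no value in common with the 23/24 arrays, while the 23/24 and control arrays do. Whether the γ- and 23/24 arrays were normalized in separate runs is not stated, and a difference between such runs and a difference between the groups cannot be told apart. Array medians ran from 5.33 to 5.53 over the 12 arrays. The SD of probe-set differences was 0.13 to 0.14 between γ- arrays, 0.12 to 0.16 between 23/24 arrays and 0.18 to 0.24 across these 2 groups. Between γ+ arrays, which enter the pooled spread, it was 0.12 to 0.24. Cardiomyocyte markers averaged 11.58 to 11.61 in the γ- arrays, 11.52 to 11.61 in the 23/24 arrays and 11.53 to 11.58 in the control arrays.

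Promoters are shown for the leading rises that hold a match to the MEF2 site and for the called interferon genes that hold a match to the interferon-stimulated response element, which is GAAA, then any 2 bases, then GAAA. Both motifs were searched on both strands in RefSeq windows of 300 bases, from 250 before to 50 after each start, in the rat assembly GRCr8, where 8319 of the 10025 genes tested had a window. The 250 bases before the start are printed, 5′ to 3′ on the gene's strand, with the matches in capitals. Myh1 (chr10:52384662-52384911, plus strand) has a MEF2 site that begins 212 bases before the start. Fgf12 (chr11:85501697-85501946, plus strand, 1 of its 2 windows) has one that begins 195 bases before it. Eif2ak2 (chr6:21940904-21941153, plus strand), Lgals3bp (chr10:104127849-104128098, minus strand) and Oas1b (chr12:41395853-41396102, minus strand) hold the interferon element, which begins 16 bases before the start in Eif2ak2 and 50 before it in Lgals3bp. In Oas1b it occurs in 2 overlapping copies that begin 59 and 53 bases before the start, followed by a MEF2 site 40 bases before it.
Myh1: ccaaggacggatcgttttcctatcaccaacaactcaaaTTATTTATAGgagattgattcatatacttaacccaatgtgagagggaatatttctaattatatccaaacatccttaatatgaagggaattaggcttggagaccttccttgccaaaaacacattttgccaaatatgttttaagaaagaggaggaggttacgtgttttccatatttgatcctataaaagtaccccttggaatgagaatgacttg
Fgf12: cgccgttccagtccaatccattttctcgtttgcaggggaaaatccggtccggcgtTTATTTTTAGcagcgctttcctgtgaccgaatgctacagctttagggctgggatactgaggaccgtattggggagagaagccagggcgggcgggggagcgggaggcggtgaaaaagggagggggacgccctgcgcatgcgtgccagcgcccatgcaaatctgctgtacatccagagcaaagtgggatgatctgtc
Eif2ak2: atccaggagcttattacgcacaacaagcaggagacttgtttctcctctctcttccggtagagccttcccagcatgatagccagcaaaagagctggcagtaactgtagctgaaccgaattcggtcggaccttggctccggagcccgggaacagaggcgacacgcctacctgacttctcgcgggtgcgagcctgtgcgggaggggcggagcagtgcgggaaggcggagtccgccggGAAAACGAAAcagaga
Lgals3bp: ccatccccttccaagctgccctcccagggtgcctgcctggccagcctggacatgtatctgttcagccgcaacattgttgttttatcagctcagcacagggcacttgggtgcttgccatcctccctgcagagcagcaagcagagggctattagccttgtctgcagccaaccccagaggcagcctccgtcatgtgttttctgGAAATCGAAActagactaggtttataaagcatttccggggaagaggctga
Oas1b: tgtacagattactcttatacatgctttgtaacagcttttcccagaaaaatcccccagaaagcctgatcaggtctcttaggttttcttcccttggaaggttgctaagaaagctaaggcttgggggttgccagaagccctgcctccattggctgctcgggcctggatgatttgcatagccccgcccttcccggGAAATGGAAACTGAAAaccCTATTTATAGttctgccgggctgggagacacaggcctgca

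The MEF2 site occurred in 3.29% of all 33469 windows in the table, in 1.46% of the windows of the genes tested, in 1.61% (6 of 373) of the windows of genes called higher and in 0.606% (2 of 330) of those of genes called lower. Among the 12 largest rises it was in 2 of 9 windows, those of Myh1 and Fgf12, and among the 12 largest falls in 0 of 6. The windows of Myh2, Myh3, Mb and Ppargc1a held no match. The interferon element was in 3.92% of all windows, 3.13% of those of tested genes, 3.22% of those of rises and 4.24% of those of falls. The E-box CANNTG, bound by many basic helix-loop-helix factors, was in 72.1% of all windows, 62.9% of those of tested genes, 66.2% of those of rises and 66.1% of those of falls. A match is a description of these letters and not evidence of binding.

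Of the 12 largest rises the first was that of Myh1, the fast skeletal myosin heavy chain 2X, which read 6.86, 6.62 and 6.70 in the γ- arrays, 5.36, 5.22 and 5.26 in the 23/24 arrays and 5.08, 5.57 and 5.44 in the control arrays. All 3 γ- arrays lay above all others, and the difference from 23/24 was 1.45 ± 0.11 (SE, n = 3 per group, limma adjusted p = 3.03e-06). Gria1, an AMPA glutamate receptor subunit, read 5.98, 5.72 and 6.0 against 4.86, 5.10 and 4.96 in 23/24 and 4.87, 4.90 and 5.08 in control. It was thus higher in every γ- array, by 0.93 ± 0.12 over 23/24 (limma adjusted p = 0.000453). Plppr5, a membrane protein related to phospholipid phosphatases, read 9.07, 8.92 and 9.02 in γ-, 8.13, 8.17 and 8.11 in 23/24 and 8.01, 8.08 and 8.23 in control. The difference of 0.87 ± 0.06 from 23/24 had the same limma adjusted p as that of Myh1. In these 3 genes the 23/24 and control arrays overlapped.

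Cacng6, a calcium channel γ subunit, read 6.82, 6.80 and 6.66 in γ- against 5.92, 6.0 and 5.90 in 23/24, a difference of 0.82 ± 0.10 (limma adjusted p = 0.000436). Fgf12, an intracellular fibroblast growth factor homologue that binds voltage-gated sodium channels and whose promoter is printed above, read 6.43, 6.61 and 6.45 against 5.78, 5.82 and 5.85, a difference of 0.68 ± 0.08 (limma adjusted p = 0.00025). Kcnk1, a tandem-pore potassium channel, was higher by 0.62 ± 0.09. Prex2, an exchange factor for Rac, was higher by 0.83 ± 0.09, Vegfd, a growth factor for lymphatic vessels, by 0.66 ± 0.09, and the nuclear receptor Nr4a3 by 0.65 ± 0.08. Bcl10, an adaptor of NF-kB signalling, read 7.95, 7.61 and 7.55 in γ-, 7.02, 7.04 and 7.14 in 23/24 and 7.41, 7.33 and 7.28 in control, so its difference of 0.64 ± 0.09 spans a control level between the 2 groups. Of these 12 rises, all but Kbtbd8 kept their call in every one of the 18 other fits in which they were tested. Kbtbd8, an adaptor of a ubiquitin ligase, read 5.18, 5.19 and 5.10 against 4.46, 3.97 and 4.43, and its limma adjusted p of 0.0275 rose above 0.05 without any 1 of the 3 γ- arrays or of 23/24 replicates 1 and 2, reaching 0.118. Rpgr, a ciliary protein, was higher by 0.64 ± 0.13 in the probe set used and lower by 0.18 in its other probe set.

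**Figure D1:**
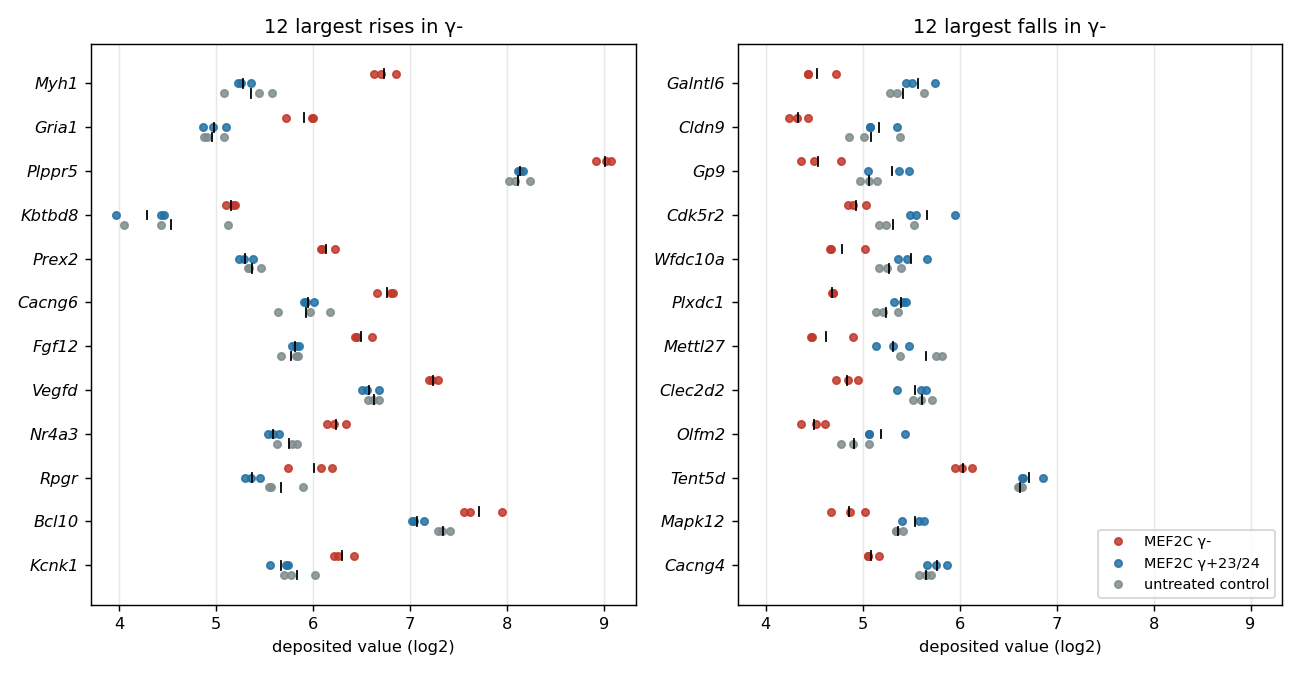
Deposited log2 value (x axis) of each γ- (red), 23/24 (blue) and untreated control array (grey) for the 12 largest rises (left) and the 12 largest falls (right), with the group mean as a black tick, 3 arrays per group. The γ- arrays of Myh1 sit between 6.62 and 6.86 and the 23/24 arrays between 5.22 and 5.36, and the γ- levels of the falls lie at 4.33 to 6.03 on average.

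The 12 largest falls were genes with dim probe sets, with γ- means of 4.33 to 6.03. Mapk12, the p38γ kinase, which is found mainly in skeletal muscle, read 4.67, 4.87 and 5.03 in γ- against 5.58, 5.41 and 5.63 in 23/24 and 5.41, 5.34 and 5.34 in control. The difference was -0.68 ± 0.10 (SE, n = 3 per group, limma adjusted p = 0.00145). Cacng4, a calcium channel and AMPA receptor auxiliary subunit, read 5.05, 5.17 and 5.05 against 5.87, 5.66 and 5.76, and Tent5d, a poly(A) polymerase, read 5.95, 6.13 and 6.02 against 6.86, 6.64 and 6.65. In these 3 genes every γ- array lay below every 23/24 and control array. Cldn9, a tight-junction claudin, was lower by 0.83 on the log2 scale (SE 0.14), Gp9, a platelet glycoprotein, by 0.76 (SE 0.13), and Plxdc1, a plexin-domain receptor, by 0.71 (SE 0.10). Galntl6, a glycosyltransferase-like gene, had the largest fall, -1.04 ± 0.13, but its 6 probe sets differed between -1.04 and 0.05. The γ- means of Cldn9 (4.33), Olfm2 (4.50), Galntl6 (4.53), Gp9 (4.54), Mettl27 (4.62) and Plxdc1 (4.69) lay below the level cutoff of 4.78. That cutoff was applied to the mean of all 12 arrays. Of the 12, all but Mettl27 kept their call in every other fit in which they were tested, and 1 passed the filter at the 60th percentile of level, against 4 of the 12 rises. Mettl27 was lost without γ- replicates 1 or 2 or 23/24 replicate 3, with a limma adjusted p of up to 0.0736.

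The balance of rises and falls varied with level and with the scaling of the arrays. Genes were split by level into 4 bins of equal size. In the lowest bin, 4.78 to 6.09, 63 genes were called higher and 207 lower, and the median difference of all genes there was -0.06. In the other bins, from dim to bright, the calls were 115 higher and 87 lower, 114 and 50, and 125 and 51. With each array centred on its median the lowest bin had 137 higher and 142 lower, and the total became 698 higher and 198 lower (77.9% higher, against 51.4% as deposited), with the median of all genes moving from 0.01 to 0.08. The other bins then had 199 higher and 30 lower, 172 and 16, and 190 and 10, so rises led in all of these. Quantile normalization gave 464 and 430, and cyclic loess 491 and 432. From dim to bright the bins had 128 and 142, 133 and 96, 99 and 99, and 104 and 93 under quantile normalization. Under cyclic loess they had 135 and 134, 141 and 84, 100 and 104, and 115 and 110. A cause of the lean in the dim genes as deposited was not tested.

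**Figure D2:**
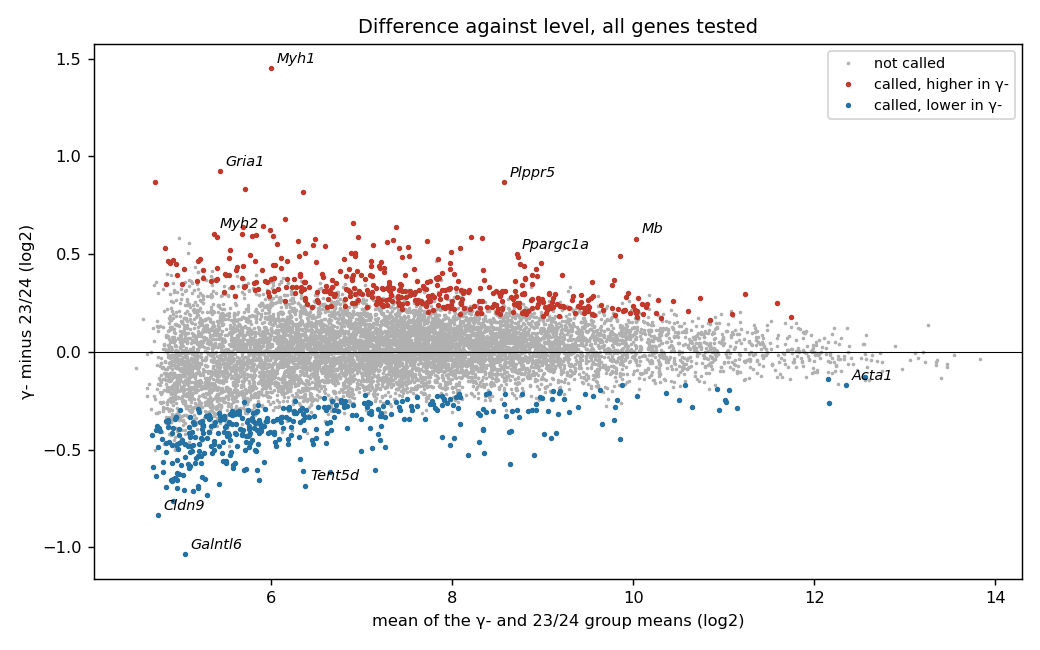
Difference γ- minus 23/24 (y axis, log2) against the mean of the 2 group means (x axis, log2) for the 10025 genes tested, with the 417 rises in red, the 395 falls in blue and the other genes in grey. The falls crowd at the dim end, and Myh1 stands highest at 1.45.

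**Figure D3:**
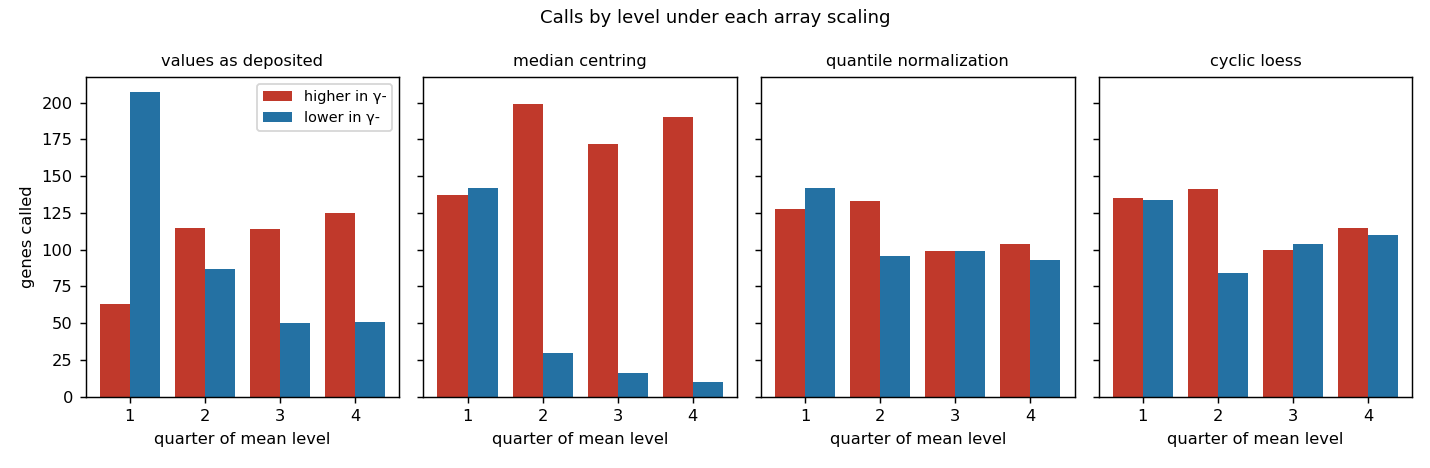
Number of genes called higher and lower in γ- (y axis) in 4 equal-sized bins of the mean level (x axis, dimmest to brightest), with the values as deposited and after 3 other scalings. As deposited, the dimmest bin holds 63 rises and 207 falls. Median centring gives 137 and 142 there but 190 and 10 in the brightest bin. Quantile normalization gives 128 and 142 in the dimmest and 104 and 93 in the brightest.

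Skeletal muscle genes were read next. Of 17 tested members of that list, the 3 called were myosin heavy chains, all higher in γ-, against 4.16% called higher over all genes. The count varied with the fit. Without the level filter 3 of 28 were higher and 4 lower, and with array weights 4 of 17 were higher and 2 lower. With the filter at the 60th percentile 6 were tested and 0 called. The median difference of the 17 was 0.04, against 0.01 over all genes. Myh1, the largest, is described above. Myh2, fast myosin 2A, read 5.63, 5.75 and 5.63 in γ-, 5.14, 5.15 and 4.90 in 23/24 and 4.66, 4.83 and 4.68 in control, and rose by 0.60 ± 0.10 over 23/24 (limma adjusted p = 0.00318). Its 23/24 arrays lay above the control arrays, and that difference of 0.34 ± 0.10 was not called (limma adjusted p = 0.375). Myh3, embryonic myosin, read 5.91, 6.06 and 5.98 in γ-, 5.30, 5.39 and 5.44 in 23/24 and 5.38, 5.31 and 5.50 in control, a rise of 0.60 ± 0.08 (limma adjusted p = 0.00081). These genes are close paralogs, and whether their probe sets separate them was not tested. Tnni2, fast skeletal troponin I, and Mybpc2, fast myosin-binding protein C, had differences of -0.28 (95% interval -0.50 to -0.07) and -0.28 (-0.53 to -0.04) and were not called.

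Of 27 sarcomere and Z-disc genes, 17 had arrays without overlap between the groups (36.2% of all genes did), 9 had an unadjusted p under 0.05 (2454 of the 10025 genes did) and 1 was called (8.10% of all genes were). The count of calls varied with the fit: 4 were called under median centring, all higher, 6 were higher and 4 lower on the 6 compared arrays alone, and 9 and 3 with array weights. The gene called was Acta1, skeletal α-actin and a fetal gene of the heart. It read 12.25, 12.24 and 12.30 in γ- against 12.41, 12.44 and 12.46 in 23/24, a fall of -0.17 ± 0.05 (limma adjusted p = 0.0411). That call was lost without any 1 array (adjusted p of 0.0765 to 0.14) and under median centring and quantile normalization. Myh6, the adult-type α-myosin of the rat ventricle, read 12.42, 12.44 and 12.43 against 12.23, 12.35 and 12.34, a difference of 0.12 (95% interval 0.01 to 0.23, limma adjusted p = 0.167), and passed the threshold in 4 other fits, among them quantile normalization. Myh7, β-myosin, differed by -0.05 (-0.22 to 0.12), Tnnt2, cardiac troponin T, by -0.01 (-0.09 to 0.07), Atp2a2, the sarcoplasmic calcium pump, by 0.04 (-0.09 to 0.16), Ryr2, the calcium release channel, by 0.10 (0.00 to 0.20) and Pln, the pump's inhibitor phospholamban, by 0.00 (-0.14 to 0.13). None of the last 5 was called, and the intervals allow differences up to the bounds given. Of 36 genes of calcium handling and ion channels, against 8.10% called over all genes, Fgf12 was higher and Cacna1g, the T-type calcium channel, was lower, at 7.91, 7.87 and 7.97 against 8.25, 8.20 and 8.16 (-0.29 ± 0.07, limma adjusted p = 0.0252). The Cacna1g call was lost under median centring and without each array except 23/24 replicate 3 (adjusted p up to 0.101).

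Of 23 tested fetal and hypertrophic genes, 1 was higher and 5 were lower, against 4.16% and 3.94% over all genes, and the median was -0.05. The natriuretic peptides Nppa and Nppb, markers of cardiac stress, differed by -0.05 (95% interval -0.15 to 0.04) and -0.09 (-0.22 to 0.04) and were not called. Nppa read 13.31, 13.32 and 13.31 in γ- and 13.37, 13.39 and 13.34 in 23/24. The metallothionein Mt2A, which binds metals and rises in stress, read 12.03, 11.97 and 12.10 against 12.32, 12.26 and 12.30, a fall of -0.26 ± 0.05 (limma adjusted p = 0.00673). Its call and those of the other 4 falls (Mt1, Acta1, Myc and Gdf15) were lost under median centring.

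Of 51 tested oxidative phosphorylation genes 42 had a difference above 0, as did 5318 of all 10025 genes, and the median was 0.09 against 0.01 over all genes. Under the other scalings that number was 38 to 50, and the 50 arose under median centring, where 7028 of all genes were above 0. All 7 called were higher, against 4.16% called higher over all genes. Ndufa2, a complex I subunit, read 7.84, 7.63 and 7.83 in γ-, 7.29, 7.22 and 7.31 in 23/24 and 7.41, 7.52 and 7.57 in control, a rise of 0.49 ± 0.07 (limma adjusted p = 0.00146) kept in every other fit. The control arrays lay between the 2 groups. The other 6 were smaller, from 0.18 for Cox6a1 of complex IV to 0.25 for Uqcrh of complex III, with Ndufb8, Ndufb3, Sdhd and Atp5po between them, and each was lost without at least 2 of the single arrays, Uqcrh without γ- replicates 1 or 3 (adjusted p up to 0.0503) and the others at an adjusted p of up to 0.143. Of 39 fatty acid oxidation genes all 4 called were higher, against the same 4.16%, and their median was also 0.09. Ppargc1a, the coactivator PGC-1α that drives mitochondrial genes, read 9.04, 8.91 and 8.94 in γ-, 8.40, 8.46 and 8.53 in 23/24 and 8.77, 8.70 and 8.52 in control, and rose by 0.50 ± 0.07 (limma adjusted p = 0.00135). Pdk4, the kinase that limits pyruvate oxidation, read 6.51, 6.35 and 6.47 against 6.14, 5.98 and 6.08, a rise of 0.37 ± 0.07 (limma adjusted p = 0.00583), with control at 6.34, 6.33 and 6.40. The γ- and control arrays of Pdk4 overlapped, and 23/24 lay below both. The calls of Ppargc1a and Pdk4 were kept in every other fit, while those of Acaa2 and Hadh, enzymes of β-oxidation, were lost without any 1 array (adjusted p of 0.0541 to 0.143).

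Among 31 genes of glycolysis, creatine kinase and oxygen storage, 1 was higher and 2 were lower, against 4.16% and 3.94% over all genes. Mb, myoglobin, read 10.30, 10.31 and 10.37 in γ-, 9.64, 9.69 and 9.90 in 23/24 and 9.67, 9.70 and 9.55 in control. It rose by 0.58 ± 0.07 (limma adjusted p = 0.000436), a call kept in every other fit. The lactate transporter Slc16a1 (-0.28 ± 0.08) and the glucose transporter Slc2a1 (-0.35 ± 0.10) were lower, and both calls were lost under median centring and without any 1 array (adjusted p of 0.0651 to 0.133).

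Of 38 genes taken as MEF2 targets, all 5 called were higher, against 4.16% higher and 3.94% lower over all genes: Myh1, Mb, Ppargc1a, Myh2 and Asb11, a muscle ubiquitin ligase adaptor that rose by 0.44 ± 0.10. The list's median was 0.05. The 5 include the genes that also stand in the skeletal muscle and metabolic lists. Myh2 is among the 38 only because its γ- arrays lifted it over the level cutoff. Under quantile normalization 6 were higher and 3 lower, under cyclic loess 5 and 4, and on the 6 compared arrays alone 9 and 7. The Asb11 call was lost without γ- replicates 1 or 3 or 23/24 replicate 1 (adjusted p up to 0.0673). Other targets showed no call: Rcan1, a calcineurin regulator, differed by -0.13 (95% interval -0.24 to -0.03), Srpk3, a muscle splicing kinase, by 0.14 (-0.04 to 0.33), Xirp2, an actin-binding repeat protein, by 0.04 (-0.09 to 0.17) and Csrp3, a muscle LIM protein, by -0.11 (-0.20 to -0.02). No tested MEF2 or class IIa deacetylase gene was called. Mef2a read 10.25, 10.20 and 10.21 in γ- and 10.35, 10.40 and 10.36 in 23/24, a difference of -0.15 (95% interval -0.25 to -0.05, limma adjusted p = 0.0521), and this one crossed the threshold in 7 of the other fits, among them quantile normalization and cyclic loess. Mef2d differed by 0.11 (-0.16 to 0.38), Mef2b by -0.19 (-0.46 to 0.09), Hdac4 by -0.06 (-0.23 to 0.11), Hdac5 by 0.04 (-0.09 to 0.16) and Hdac7 by -0.16 (-0.34 to 0.02). The interval of Mef2d takes in the spread of the γ+ arrays, where its SD was 0.40, against 0.04 in γ- and 0.02 in 23/24. Of the list's 18 members 1 was called, against 8.10% of all genes. It was Mapk7, the ERK5 kinase that activates MEF2, at -0.27 ± 0.07 (limma adjusted p = 0.0326). That call was lost under median centring and in 5 of the 6 fits that left out an array.

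Of 53 tested interferon response genes, 5 were higher and 2 lower, against 4.16% and 3.94% over all genes, and the median was 0.07. Oas1b, an antiviral oligoadenylate synthetase, read 6.17, 5.81 and 6.07 in γ-, 5.55, 5.42 and 5.58 in 23/24 and 5.50, 5.32 and 5.25 in control, a rise of 0.50 ± 0.10 (limma adjusted p = 0.00701). Herc6, an interferon-induced ligase, read 6.30, 6.31 and 6.20 against 5.77, 5.87 and 5.83, a rise of 0.45 ± 0.08 (limma adjusted p = 0.00362). Eif2ak2, the RNA-activated kinase PKR, read 8.19, 8.02 and 8.14 against 7.80, 7.79 and 7.79, a rise of 0.32 ± 0.06 (limma adjusted p = 0.00444), with control at 7.74, 7.79 and 7.71. These 3 kept their call in every other fit. The other 2 rises were Ifit1 (0.28 ± 0.07) and Rtp4 (0.45 ± 0.13), with Ifit1 lost in 4 and Rtp4 in 5 of the 6 fits that left out an array. Lgals3bp, a secreted glycoprotein, went the other way, at 10.53, 10.47 and 10.53 against 10.73, 10.79 and 10.85 (-0.28 ± 0.05, limma adjusted p = 0.00238), with control at 10.60, 10.59 and 10.55. Oasl fell by 0.24 on the log2 scale and was lost under median centring and in 5 of those 6 fits. Both γ- and 23/24 cells carried virus, so these values do not set virus against none.

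Of 28 tested NF-kB and inflammatory genes, 1 was higher and 6 were lower, against 4.16% and 3.94% over all genes, with a median of -0.11. Under median centring 2 were higher and 4 lower. Cxcl1, a chemokine for neutrophils, read 8.15, 8.07 and 8.21 in γ-, 8.62, 8.46 and 8.54 in 23/24 and 8.50, 8.67 and 8.64 in control, a fall of -0.40 ± 0.07 (limma adjusted p = 0.00455). Cxcl6 fell by 0.45 on the log2 scale (SE 0.09, limma adjusted p = 0.00709) and the iron-binding Lcn2 by 0.41 (SE 0.08, limma adjusted p = 0.00847). These 3 falls were kept in every other fit. The growth factor Csf1 and the chemokine Ccl7 were lower by 0.25 and 0.32 on that scale and were lost under median centring, and Ptgs2, the inducible cyclooxygenase, was lower by 0.33 and was lost without γ- replicates 1 or 3 (adjusted p up to 0.0525). Vcam1, an adhesion molecule, was higher by 0.33 ± 0.09 and was lost without any 1 array (adjusted p of 0.0702 to 0.162).

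Genes of other cell types were read for the make-up of the cultures. Of 42 extracellular matrix and fibroblast genes 1 was higher and 5 were lower, against 4.16% and 3.94% over all genes, with a median of -0.10. Col12a1, a fibril-associated collagen, read 8.84, 8.85 and 8.85 in γ- against 8.55, 8.55 and 8.58 in 23/24, and rose by 0.29 ± 0.05 (limma adjusted p = 0.00434), a call kept in every other fit. Pdgfrb, Mfap4, Mmp2, Loxl1 and Mmp14 fell by 0.17 to 0.31. The falls moved with the scaling: all 5 were lost under median centring, while 12 genes were lower under quantile normalization and 13 under cyclic loess. Without any 1 of the 6 arrays, Mmp2 and Mmp14 were lost (adjusted p of 0.0614 to 0.13), and the other 3 in 4 or 5 of the 6 fits. Their mean level in single arrays was 9.11 to 9.13 in γ-, 9.15 to 9.23 in 23/24 and 9.19 to 9.22 in control. Macrophage and leukocyte markers, 15 tested, had 3 lower (Laptm5, C1qb and Cd53), against 3.94% over all genes, with a median of -0.09. Their mean level was 6.19 to 6.23, 6.26 to 6.33 and 6.23 to 6.31 in the 3 groups in that order. These 3 calls were lost under median centring and in 5 or 6 of the 6 fits that left out an array. Endothelial markers had 1 higher (Flt1, 0.30 ± 0.07) and 1 lower (Nos3, -0.30 ± 0.08) of 21, and epicardial markers 1 higher (Bnc1, 0.39 ± 0.09) of 9. Over all genes the shares were 4.16% higher and 3.94% lower. The calls of Flt1, Nos3 and Bnc1 were each lost in at least 4 of the 6 fits that left out an array. limma called 0 of 16 smooth muscle genes (2 at an unadjusted p under 0.05) and 0 of 4 glial and neuronal genes (1 at that p). Among 24 cardiomyocyte markers Mb was the 1 called, against 8.10% called over all genes. The part of these cell types in the differences above was not tested.

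Of 43 genes of the G1 to S step of the cell cycle 3 were higher and 3 lower, against 4.16% and 3.94% over all genes. Tk1, thymidine kinase, read 7.05, 7.03 and 7.05 in γ- against 7.38, 7.42 and 7.31 in 23/24 (-0.33 ± 0.07, limma adjusted p = 0.00761), and Gins2, a replication helicase subunit, read 5.32, 5.27 and 5.28 against 6.09, 5.85 and 5.67 (-0.58 ± 0.10, limma adjusted p = 0.00304). Both calls were kept in every other fit. The other fall, Chaf1b (-0.26 ± 0.07, limma adjusted p = 0.0379), was lost under median centring, with a replicate block and in 5 of the 6 fits that left out an array. The rises Fen1 (0.30 ± 0.07), Pola1 (0.31 ± 0.08) and Rfc3 (0.32 ± 0.09), all replication enzymes, were each lost in at least 5 of the 6 fits that left out an array. Of 49 genes of the G2 to M step 2 were higher and 1 lower, against the same shares over all genes. Among stress genes, 37 were tested in the unfolded protein list, with a median difference of 0.00, 18 above 0 and 4 called, all higher (4.16% of all genes were). They include Pdia6, a protein disulfide isomerase, at 10.91, 10.84 and 10.87 against 10.57, 10.61 and 10.60 (0.28 ± 0.05, limma adjusted p = 0.00444, kept in every other fit). Among the other rises, Chac1 was lost without γ- replicate 3 or 23/24 replicates 2 or 3, Dnajb1 without γ- replicates 1 or 3 or 23/24 replicate 2, and Herpud1 without any 1 array (adjusted p of up to 0.152). The counts that follow stand beside 4.16% higher and 3.94% lower over all genes. Of 30 p53 target genes 1 was higher and 2 lower, and of 32 immediate early genes Nr4a3 was higher and Sphk1 and Myc lower. Of 32 cardiac transcription factors 1 was higher and 2 lower, of 25 genes of cholesterol and lipid synthesis 1 was lower (Scd2), of 28 autophagy genes 1 was higher (Lamp1), of 16 atrial genes 1 was higher (Fgf12), and of 6 glutamate receptor and synaptic genes Gria1 was higher and Syn1 lower. Gria1 is among these 6 only because its γ- arrays lifted it over the level cutoff. Without the level filter 20 genes of that list were tested, with 1 higher and 1 lower. The calls of Myc, Scd2 and Syn1 were lost in all 6 fits that left out an array, at a limma adjusted p of up to 0.173. That of Lamp1 was lost in 2 of these 6 fits and that of Sphk1 in 1.

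**Figure D4:**
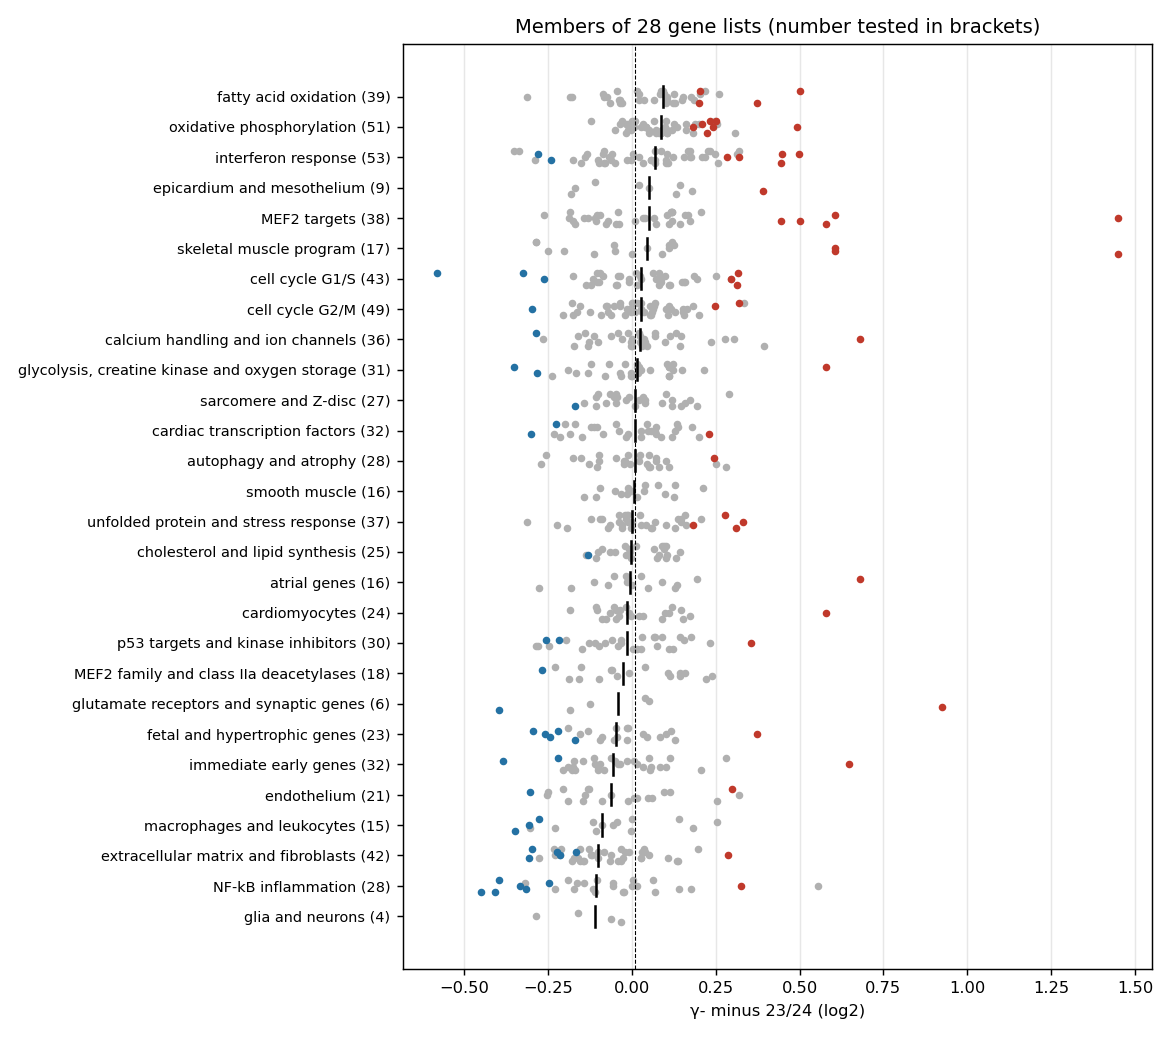
Difference γ- minus 23/24 (log2, x axis) of each tested member of the 28 gene lists (rows), with called members coloured the list median as a black tick and the median of all genes as a dashed line. The skeletal muscle list reaches 1.45 with Myh1, and the extracellular matrix list has its median at -0.10.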

How the data were processed

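Gene expression was measured on Affymetrix arrays in 12 cultures of rat cardiomyocytes, 4 groups of 3. The authors deposited 1 table of log2 values (the scale is taken from the range of the values; the log base is not stated), and MAS5 is the tool that the submitters' processing notes name, without a version. How background, summarization and normalization were done is not given in the sources used here. Arrays have no read depth; their number, 3 per group, limits the precision.

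Of 28826 probe sets, 15209 had 1 gene symbol, 306 several and 13311 none in the platform annotation. Of the 15209, 15178 were matched to RefSeq, whose current symbol was used whether or not it differed. Probe sets whose 12-array mean lay above the 40th percentile (4.78) were kept, and the brightest single-gene probe set of each gene was tested, giving 10025 genes. limma 3.58.1 in R 4.3.3 fitted 1 mean per group over all 12 arrays (8 residual degrees of freedom, intensity trend), with Benjamini-Hochberg adjustment over all genes tested, and a gene was called at an adjusted p under 0.05. Intervals are 95% intervals of that fit, without adjustment. On simulated data with the same size, the fit recovered 42% of true differences of 0.25 log2, 88% at 0.5 and 98% at 1 (50 genes each), and 11 of its 175 calls were false. The simulation used independent normal noise around 1 mean shared by the 4 groups. It held no difference between runs and no lean in dim genes, so these shares do not carry over to the calls made here.

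Named genes are the 12 largest rises and falls among called genes whose groups did not overlap, up to 3 called genes of lowest adjusted p per list, the MEF2 family, Nppa, Nppb, Myh6, Myh7, Acta1 and Atp2a2. The further genes Gdf15, Oas1b, Ifit1, Rtp4, Oasl, Ccl7, Lcn2, Ptgs2, Vcam1, Mmp2, Loxl1, Mmp14, Hadh, Atp5po, Cox6a1, Ndufb3, Sdhd, Asb11, Herpud1, Pola1, Rfc3, Chaf1b, Tnni2, Mybpc2, Tnnt2, Ryr2, Pln, Rcan1, Srpk3, Xirp2, Csrp3, Hdac4, Hdac5 and Hdac7 were named after their values were seen. The comparison and the 28 lists were chosen with earlier results of these data known. The alternatives were other scalings, filters, probe-set rules, limma settings, sets of arrays, a replicate block and leaving out each array.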

Additional observations from a re-analysis of the deposited data

How the results depend on the processing

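None of the 75 called genes named by the rule changed sign in any of the 18 other fits in which it was tested. Which direction held more calls did change. The 417 rises and 395 falls became 698 and 198 with median centring, 655 and 986 without the level filter, and 323 and 165 with the filter at the 60th percentile. Array weights gave 1373 and 1155, the 6 compared arrays alone 983 and 777, and the 9 arrays without γ+ 889 and 731. A minimum difference of 1 log2 left 1 and 1. Leaving out an array gave 125 to 293 rises and 138 to 236 falls, with 255 to 482 of the 812 calls kept. The cause was not tested. Other scalings, probe-set averaging, no trend and a robust prior stayed within 1.5 times. Rises outnumbered falls as deposited, but falls outnumbered rises without the filter, with no trend (388 and 444), and without γ- replicate 1 (125 and 138), γ- replicate 3 (150 and 167) or 23/24 replicate 1 (151 and 158). Of the 75 genes, 37 kept their call in every fit in which they were tested, and 22 lost it with median centring. A replicate block gave 320 and 308, and 68 of the 75 kept their call. Deviations from the group means had same-number correlations of -0.17, 0.02 and 0.06. With 3 arrays per group these cannot settle whether the replicate numbers pair the samples. The uncalled Mef2a, Myh6 and Nppb passed the threshold in 7, 4 and 2 fits. With 3 arrays per group, 42% of differences of 0.25 log2 were recovered in data simulated without a difference between runs.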

Other observations

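Genes outside the lists included other rises and falls, named after their values were seen. Corin, the protease that activates the natriuretic peptide precursor pro-ANP, read 6.23, 6.07 and 6.09 in the γ- arrays, 5.52, 5.54 and 5.54 in the 23/24 arrays and 5.54, 5.73 and 5.49 in the control arrays, a rise of 0.60 ± 0.09 over 23/24 (SE, n = 3 per group, limma adjusted p = 0.00145), while Nppa itself was not called. Lmcd1, a LIM-domain regulator of cardiac hypertrophy, read 8.63, 8.56 and 8.67 against 7.91, 8.09 and 8.10 (0.58 ± 0.06, limma adjusted p = 0.000244). The secreted protease Adamts1 read 8.53, 8.47 and 8.51 against 7.91, 7.86 and 7.97 (0.59 ± 0.09, limma adjusted p = 0.00147), and the guidance cue Sema3d rose by 0.51 ± 0.07.

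Among the falls, Snx18, a sorting nexin, read 6.87, 6.82 and 6.85 in γ- against 7.50, 7.47 and 7.39 in 23/24 (-0.61 ± 0.07, limma adjusted p = 0.000436). Gpd1, the cytosolic glycerol-3-phosphate dehydrogenase, read 6.41, 6.35 and 6.26 against 7.0, 6.97 and 6.90 (-0.61 ± 0.11, limma adjusted p = 0.00393). Pomgnt2, a glycosyltransferase of dystroglycan, fell by 0.61 on the log2 scale (SE 0.09). All 7 genes kept their call in every other fit in which they were tested.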
